A study of Mus musculus with 20 samples.

Results

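The 10 genes described here mark T cells and the PD-1 checkpoint, and were taken by name from the 43346 genes counted in 20 mouse breast tumors. They are Cd3e, Cd3d and Cd3g of the CD3 complex, Cd2, Cd4, Cd8a, the cytotoxic genes Gzmb and Prf1, the checkpoint receptor gene Pdcd1 and its ligand gene Cd274. All 10 were found, and they were chosen by name for their function, with earlier results of these data known. Every tumor arose spontaneously in a female F1 mouse from a FVB/J mother and a BALB/c-neuT father, hemizygous for the activated rat Her2 transgene neuT, and was collected when any tumor of the mouse reached the size limit, 1 tumor per mouse. The titles put 9 tumors in a group called Lo and 11 in a group called Hi, without saying what the names stand for, and the groups share strain, sex, transgene and tissue. Tumors are numbered below as in those titles. The RNA came from a frozen piece of whole tumor, so it holds tumor cells together with immune, stromal and vessel cells. In such bulk RNA, fewer T cells and less RNA per T cell cannot be told apart.

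T cells recognize peptides with a receptor that signals through the CD3 chains and the zeta chain, helped by CD4 on helper cells or CD8 on cytotoxic cells. Cytotoxic T cells and natural killer cells kill by releasing granzymes through pores made by perforin. Activated T cells display PD-1, encoded by Pdcd1, and its ligand PD-L1, encoded by Cd274, can be made by tumor cells and macrophages and is induced by interferon, a loop that restrains T cells in tumors and that checkpoint antibodies block.

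The CD3 genes lie side by side on chromosome 9 of mm10, so their promoters are shown together. Cd3g spans chr9:44969572-44980431 on the minus strand, Cd3d spans chr9:44981793-44987052 on the plus strand and Cd3e spans chr9:44998743-45009590 on the minus strand. Only 1361 bases separate Cd3g from Cd3d, which point away from each other, and 11690 bases separate Cd3d from Cd3e, so that all 3 genes fit within 40019 bases. The promoters below run from 250 bases before the RefSeq start to 50 bases after it, 5′ to 3′ on the gene's own strand, in GRCm38.p6, the assembly also called mm10. The Cd3g window is chr9:44980382-44980681, the Cd3d window chr9:44981536-44981835 and the Cd3e window chr9:45009562-45009861. The Gzmb window, chr14:56262285-56262584 on the minus strand, and the Cd274 window, chr19:29367188-29367487 on the plus strand, are shown because the levels of these genes are set against those of the CD3 genes below. Capitals mark a match to a gamma-activated site (TTCNNNGAA, bound by STAT proteins) or to the RUNX core (TGTGGT), searched on both strands.
Cd3g: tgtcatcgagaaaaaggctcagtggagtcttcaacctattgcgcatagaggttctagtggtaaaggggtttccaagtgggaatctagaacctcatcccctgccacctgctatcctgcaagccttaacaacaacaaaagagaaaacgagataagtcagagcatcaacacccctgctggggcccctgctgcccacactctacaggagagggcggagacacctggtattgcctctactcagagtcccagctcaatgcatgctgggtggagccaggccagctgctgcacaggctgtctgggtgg
Cd3d: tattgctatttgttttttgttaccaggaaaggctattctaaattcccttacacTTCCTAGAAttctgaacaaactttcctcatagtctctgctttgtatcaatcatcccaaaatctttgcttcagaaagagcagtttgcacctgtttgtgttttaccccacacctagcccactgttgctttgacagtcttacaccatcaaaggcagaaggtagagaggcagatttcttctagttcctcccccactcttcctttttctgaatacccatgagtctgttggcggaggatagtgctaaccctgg
Cd3e: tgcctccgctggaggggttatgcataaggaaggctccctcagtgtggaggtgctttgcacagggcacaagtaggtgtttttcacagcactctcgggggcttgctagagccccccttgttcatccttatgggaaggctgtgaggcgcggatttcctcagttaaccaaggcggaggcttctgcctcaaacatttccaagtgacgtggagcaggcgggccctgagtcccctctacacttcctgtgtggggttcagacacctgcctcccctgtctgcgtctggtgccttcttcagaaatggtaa
Gzmb: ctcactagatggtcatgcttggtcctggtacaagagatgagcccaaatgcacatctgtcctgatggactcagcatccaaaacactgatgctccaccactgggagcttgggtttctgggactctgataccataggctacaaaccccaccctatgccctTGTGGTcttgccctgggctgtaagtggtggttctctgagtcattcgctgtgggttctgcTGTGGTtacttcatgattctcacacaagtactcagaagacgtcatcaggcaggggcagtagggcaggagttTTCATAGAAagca
Cd274: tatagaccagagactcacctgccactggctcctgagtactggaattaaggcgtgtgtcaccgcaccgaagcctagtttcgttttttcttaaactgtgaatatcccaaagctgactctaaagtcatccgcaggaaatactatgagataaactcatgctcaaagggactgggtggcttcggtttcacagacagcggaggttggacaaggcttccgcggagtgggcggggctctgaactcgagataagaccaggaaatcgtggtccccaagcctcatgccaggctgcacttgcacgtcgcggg
The Cd3d window held 1 gamma-activated site, which starts 197 bases before the start of transcription. The Gzmb window held 2 RUNX cores, 93 and 34 bases before the start, and 1 gamma-activated site from base 37 after the start. Such sites were not rare: of 32851 RefSeq promoters of this length, 8.30% held a gamma-activated site and 16.8% a RUNX core. An interferon-stimulated response element (GAAA, any 2 bases and GAAA again, in 3.44% of promoters) and a TATA box (TATAAA, in 13.6%) were also searched and matched in none of the 5 windows. RefSeq promoters were found for 8 members, and of those not shown Prf1 had 1 RUNX core, 130 bases before its start, while Cd8a and Pdcd1 had no match. A match is a run of letters and not a site shown to be bound.

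The other members are spread over the genome in mm10. Cd4 (chr6:124864692-124888221) and Cd8a (chr6:71373427-71379171) share a chromosome, and Gzmb (chr14:56258856-56262260) lies near Gzmc, another granzyme gene. Prf1 lies at chr10:61297836-61304263, Cd2 at chr3:101275899-101287939, Pdcd1 at chr1:94038305-94052553 and Cd274 at chr19:29367455-29388095. These spans are those of the deposited table. Of the 10 genes, 8 share no exon base with another gene in the GENCODE M21 annotation of the same assembly. Cd3e shares 135 bases with Gm48719 and Cd274 shares 511 bases with AC119228.1, both on the opposite strand, and since the strand setting of the counting is not stated, reads from these stretches cannot be told apart.

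Total counts ran from 38765682 to 65465755 per tumor, and 6.29% to 27.7% of them fell on 2 genes of the ribosomal RNA locus. At these depths a count of 0 allows up to 3 counts, or 0.0458 to 0.0774 counts-per-million (CPM) depending on the tumor. Genes of luminal mammary epithelium were abundant, with Krt8 at 789 CPM and Epcam at 1065 CPM on average. No tumor's column was identical to another. Neither Cd3e, Cd274 nor the leukocyte gene Ptprc followed the total count or the ribosomal share across tumors, with a lowest adjusted p of 0.744 over 6 relations by a two-sided permutation test of Pearson's r.

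The CD3 genes were detected by few reads, with medians of 13.5 counts for Cd3e, 12 for Cd3g and 11 for Cd3d. Cd3e, a CD3 chain required for the receptor to reach the surface, had 3, 6, 12, 5, 13, 17, 10, 14 and 4 counts in Lo tumors 1, 2, 3, 4, 9, 13, 14, 16 and 17. In Hi tumors 5, 6, 7, 8, 11, 12, 18, 19, 20, 21 and 22 it had 27, 26, 15, 16, 38, 5, 4, 27, 8, 19 and 26 counts. Tumor 11 was highest, and 7 of the 20 tumors, from both groups, had under 10 counts. Cd3g, the gamma chain, had 2, 10, 16, 15, 12, 12, 22, 6 and 4 counts in the Lo tumors in the same order, and 45, 12, 21, 16, 33, 12, 6, 50, 9, 16 and 7 counts in the Hi tumors. Its highest tumors, 19 and 5, were also high for Cd3e. Cd3d, the delta chain, had 6, 0, 14, 12, 11, 4, 3, 11 and 0 counts in the Lo tumors and 24, 14, 17, 2, 18, 12, 8, 25, 0, 12 and 1 in the Hi tumors, and so was at 0 in tumors 2, 17 and 20. On the CPM scale the means over all tumors were 0.282 ± 0.171 for Cd3e, 0.309 ± 0.225 for Cd3g and 0.183 ± 0.138 for Cd3d (SD, n = 20).

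The co-receptors differed in level. Cd4, carried by helper T cells and in some species by myeloid cells, had 34, 53, 56, 71, 97, 114, 38, 56 and 35 counts in the Lo tumors and 112, 72, 73, 39, 72, 65, 58, 107, 57, 98 and 105 in the Hi tumors. The lowest tumor still had 34 counts, and the groups overlapped. Cd8a, of cytotoxic T cells and a subset of dendritic cells, had 4, 5, 23, 12, 12, 8, 11, 6 and 10 counts in the Lo tumors and 32, 16, 23, 13, 26, 10, 1, 42, 10, 23 and 13 in the Hi tumors. Tumor 19 was the highest for Cd8a, Cd3g and Cd3d alike, and tumor 18 held 1 read of Cd8a. Cd2, an adhesion receptor of T and natural killer cells, had 1, 0, 6, 6, 11, 4, 8, 13 and 12 counts in the Lo tumors and 15, 0, 17, 2, 16, 4, 2, 19, 22, 11 and 4 in the Hi tumors. Means were 1.37 ± 0.478 CPM for Cd4, 0.287 ± 0.186 CPM for Cd8a and 0.167 ± 0.138 CPM for Cd2 (SD, n = 20).

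Of the cytotoxic genes, Gzmb was far better detected than Prf1. Gzmb, the granzyme that activates caspases in target cells, had 82, 15, 17, 16, 34, 56, 47, 29 and 28 counts in the Lo tumors and 45, 73, 52, 11, 31, 26, 8, 101, 15, 16 and 22 in the Hi tumors. Its highest level stood in Lo tumor 1 at 2.12 CPM (95% exact binomial interval 1.68 to 2.63, counting error only), and its next highest in Hi tumor 19 at 2.01 CPM. Tumor 1 had the fewest Cd3e reads but also the smallest total count. On the CPM scale Cd3e was lower in Lo tumor 17, at 0.0701 against 0.0774 CPM in tumor 1. Prf1, perforin, had 2, 0, 4, 2, 7, 6, 1, 5 and 1 counts in the Lo tumors and 11, 9, 6, 1, 11, 2, 2, 4, 6, 6 and 0 in the Hi tumors. It stayed under 10 counts in 18 of 20 tumors. Means were 0.726 ± 0.572 CPM for Gzmb and 0.0821 ± 0.0598 CPM for Prf1 (SD, n = 20).

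Of the checkpoint pair, the ligand gene was the better read. Pdcd1 had 4, 5, 11, 13, 7, 15, 9, 6 and 11 counts in the Lo tumors and 19, 10, 18, 8, 28, 20, 6, 15, 8, 8 and 21 in the Hi tumors. Cd274 had 142, 103, 96, 176, 114, 319, 136, 94 and 124 counts in the Lo tumors and 166, 87, 126, 67, 153, 84, 61, 136, 101, 142 and 86 in the Hi tumors. Tumor 11 was highest for both Pdcd1 and Cd3e, whereas Cd274 was highest in tumor 13, at 6.72 CPM (95% exact binomial interval 6.004 to 7.501). Means were 0.229 ± 0.0992 CPM for Pdcd1 and 2.48 ± 1.19 CPM for Cd274 (SD, n = 20).

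**Figure D1:**
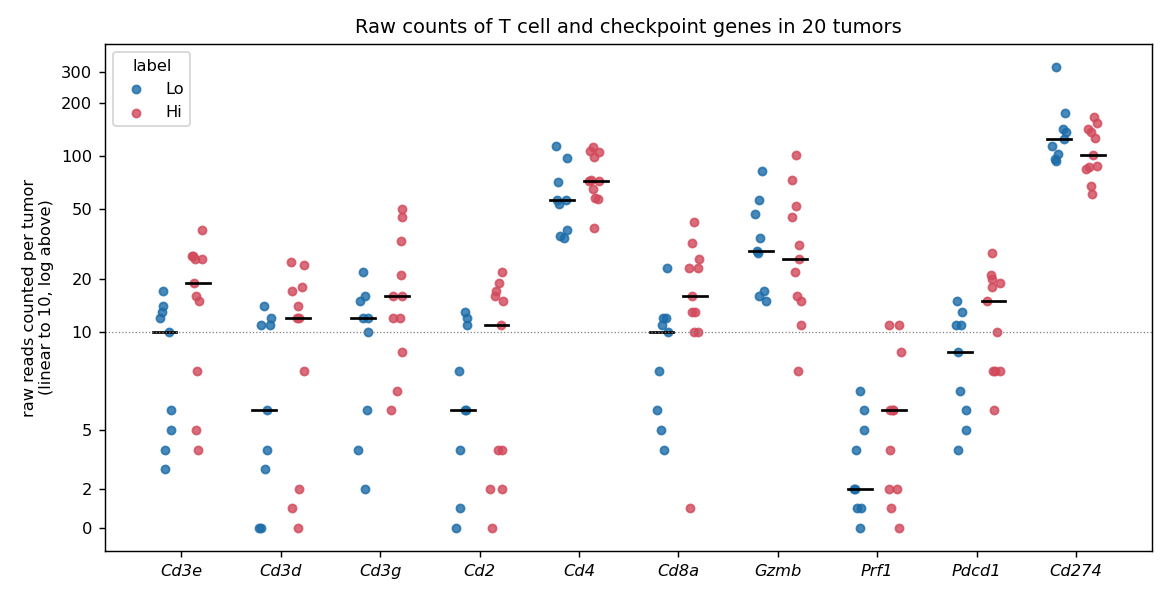
Raw reads counted for each of the 10 genes (vertical axis, linear to 10 and logarithmic above; 1 point per tumor, blue for the 9 Lo and red for the 11 Hi tumors; black lines are group medians). Cd4 and Cd274 have at least 34 and 61 counts in every tumor, and 3 genes (Cd3d, Cd2 and Prf1) reach 0 in some tumors.

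Spread between tumors exceeded counting error for all 10 genes. The coefficient of variation of the CPM was 60.6% for Cd3e, where Poisson counting alone would give 26.5%, and 65.0% against 26.3% for Cd8a. For Gzmb it was 78.9% against 16.5% and for Cd274 48.1% against 8.94%, the highest ratios of the set. For Prf1 (72.8% against 49.1%) and Pdcd1 (43.3% against 29.4%) the spread between tumors stood closest to that of counting.

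To compare genes, the CPM was divided by coding length in kilobases, which gives the RPKM. In mean RPKM over the 20 tumors the order ran from Cd274 (0.684) and Gzmb (0.512) through Cd4 (0.339), Cd3g (0.289), Cd3e (0.196), Cd3d (0.139), Pdcd1 (0.119), Cd2 (0.0958) and Cd8a (0.0916) to Prf1 (0.0400). Neighbours in this order overlapped in range in every case, and no difference between neighbours exceeded the SD of the paired differences, Cd274 lying above Gzmb in 16 of 20 tumors and Cd2 above Cd8a in 8. Of pairs farther apart in the order or of related function, Cd4 exceeded Cd3e in 17 of 20 tumors and Cd8a exceeded Cd3e in 2, so that these overlapped too. Cd4 exceeded Cd8a in RPKM in 20 of 20 tumors, 3.70-fold in the means, and Gzmb exceeded Prf1 in 20 of 20, 12.8-fold. Against other cell types the T cell genes were scarce. Ptprc, the CD45 phosphatase of leukocytes, averaged 5.54-fold the RPKM of Cd3e, the macrophage receptor gene Csf1r 64.0-fold, and the luminal keratin gene Krt8 2228-fold, each higher in 20 of 20 tumors. The Ptprc ratio rests on listed lengths of 18313 bases for Ptprc and 1436 for Cd3e, whose exons in GENCODE M21 cover 18313 and 4080 bases. Without division by length the Ptprc ratio would be larger.

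**Figure D2:**
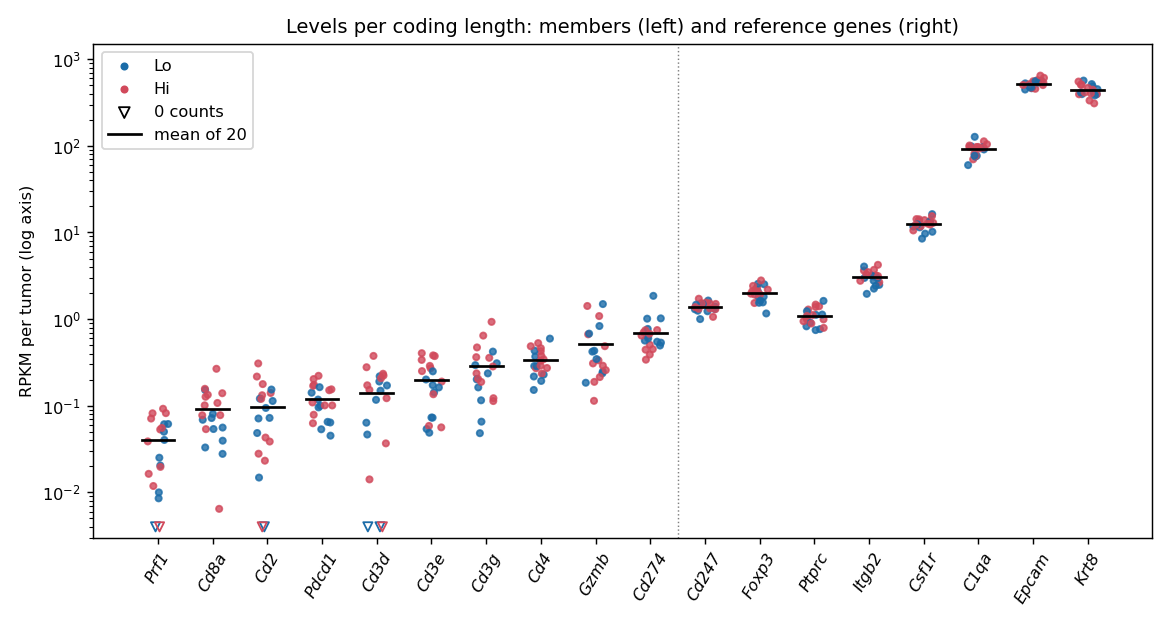
CPM per kilobase of coding length (RPKM, log axis) of the 10 genes, left of the dotted line, and of reference genes to its right; each point is 1 tumor (blue Lo, red Hi), black lines are means of 20 tumors and open triangles mark counts of 0. Mean RPKM runs from 0.0400 for Prf1 to 0.684 for Cd274, below 1.09 for Ptprc, 12.6 for Csf1r and 437 for Krt8.

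The other genes of the T cell receptor and its signalling fell in 2 tiers of raw count, which takes no account of gene length. Of 16 listed genes 15 were found and 12 averaged at least 10 counts. Genes near the CD3 genes in count included the receptor constant genes Trac (median 10.5 counts), Trbc1 (14.5) and Trbc2 (19.5). In contrast Thy1, also made by fibroblasts, had a median of 1365.5 counts, Cd247, the zeta chain of the receptor, 396.5, Tcf7 103.5 and the kinase gene Lck 101. The listed coding length was 413 bases for Trac and 692 for Trbc2, against 2625 for Tcf7 and 2929 for Lck. Per length the gap between these 4 genes is therefore narrower than in counts. Cd247 exceeded Cd3e in RPKM 7.08-fold and in 20 of 20 tumors, although both encode parts of 1 receptor. Its exons share up to 3007 bases with other genes, Pou2f1 on the opposite strand among them, and its r with Cd3e was 0.227 (adjusted p = 0.725 by the permutation test). Among 6 genes of regulatory T cells, Foxp3, their defining factor, had a median of 407 counts and 10.2-fold the RPKM of Cd3e, whereas Ctla4, which these cells carry at high level, was at 0 in 11 of 20 tumors and Il2ra had a median of 11.5. Ikzf2 (median 478 counts), Tnfrsf18 (363) and Tnfrsf4 (27.5) were also read. Foxp3 shares up to 853 exon bases with neighbours that include Ccdc22 and Ppp1r3f on the opposite strand. Its r with Cd3e was −0.132, and those of the others with at least 10 counts ran from −0.179 for Tnfrsf18 through 0.214 for Tnfrsf4 and 0.343 for Ikzf2 to 0.408 for Il2ra, none past an adjusted p of 0.05 by the permutation test. The part of overlapping reads in the Cd247 and Foxp3 counts was not tested.

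Among other effector genes, Gzmc, a granzyme gene near Gzmb, had 2.67-fold the RPKM of Gzmb and was higher in 18 of 20 tumors. Ifng, the main T cell interferon, was at 0 in 10 of 20 tumors and reached at most 5 counts, and Gzmk was at 0 in 18. The natural killer receptor genes Ncr1 and Klrd1 had medians of 13 and 10.5 counts, close to those of the CD3 genes. Among the other checkpoint genes, Lag3 (median 141.5 counts), Havcr2 (205.5) and Btla (112) were read more often than Pdcd1, whereas Tigit (4) and the alternative PD-1 ligand gene Pdcd1lg2 (0) were barely read. Cd274 had 56.7-fold the RPKM of Pdcd1lg2. Ligand genes that many cell types make were abundant, with medians of 2027 counts for Cd276, 1737.5 for Lgals9 and 1069 for Pvr. Of the B cell genes, Cd79a had a median of 10.5 counts, while the immunoglobulin gene Ighm had a median of 378.5.

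To see whether the members moved together, Pearson's r of log2 CPM (TMM scaling, prior count 2) with Cd3e was computed over the 20 tumors for the 18882 other genes that passed a filter on low counts, with a two-sided test of 100000 permutations and Benjamini-Hochberg adjustment over all genes. Of the other 9 members 7 passed the filter, Cd2 and Prf1 being too low. All 7 had a positive r, against 49.8% of all genes, and their median r was 0.44, against −0.0017 over all genes. None of the 7 passed at an adjusted p of 0.05, a level reached by 0.18% of all genes (34, of which 21 were positive). At an unadjusted p under 0.05 3 of the 7 passed, all positive, as did 7.51% of all genes.

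Cd8a came closest, with an r of 0.678 (p = 0.00059, adjusted p = 0.0784, permutation test). For Cd3g r was 0.602 (adjusted p = 0.156) and for Cd4 0.560 (adjusted p = 0.209) by the same permutation test. Pdcd1 followed with an r of 0.440, Cd3d with 0.325 and Gzmb with 0.262, none past the unadjusted threshold. The lowest r was that of Cd274, at 0.0286 (p = 0.906, permutation test), and its difference from that of Pdcd1 was not tested. Within Lo tumors r with Cd3e was 0.267 for Cd8a and 0.499 for Cd3g, and within Hi tumors 0.779 and 0.560. Spearman's rho over all tumors was 0.659 for Cd8a (p = 0.00192), 0.595 for Cd3g (p = 0.00706) and 0.504 for Cd4 (p = 0.0255), by permutation and unadjusted. Without tumors 17 and 18, the farthest from the median of Cd3e, r was 0.630 for Cd8a, 0.484 for Cd3g and 0.456 for Cd4.

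**Figure D3:**
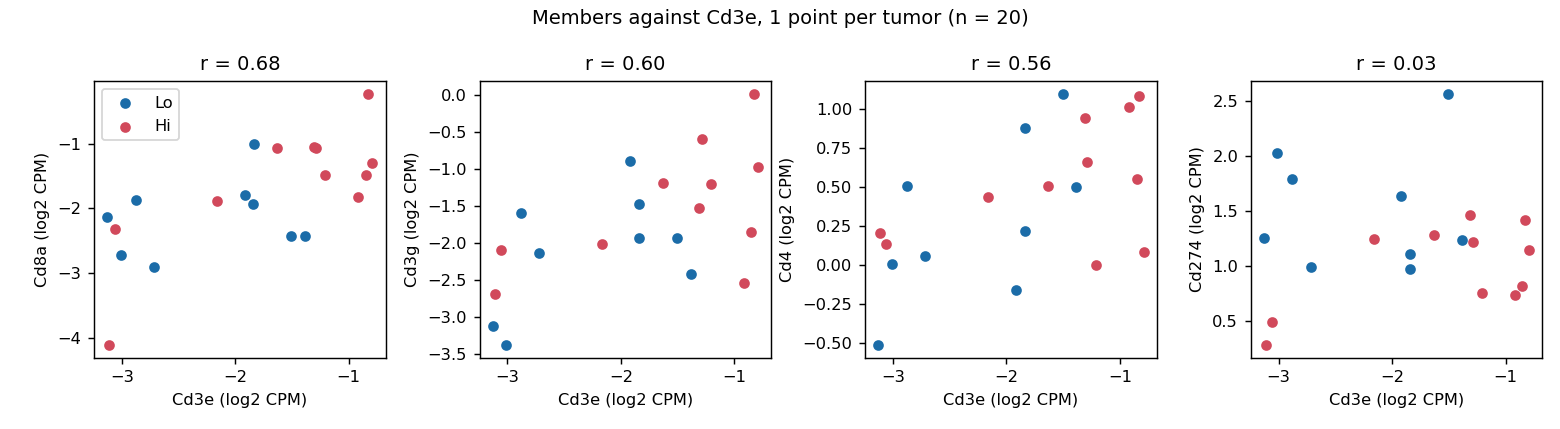
Log2 CPM of Cd8a, Cd3g, Cd4 and Cd274 (vertical axes) against log2 CPM of Cd3e (horizontal axes), 1 point per tumor, blue for Lo and red for Hi. Cd8a, Cd3g and Cd4 lean upward with r of 0.678, 0.602 and 0.560, while the Cd274 points show little slope (r = 0.0286).

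Outside the members, the most similar genes to Cd3e among those with a mean of at least 1 CPM were 4930506M07Rik (r = 0.863), Ifngr1 (0.847), the interferon-gamma receptor chain, Spink5 (0.828), Dapk2 (0.828) and Plxnc1 (0.826). Their adjusted p-values were 0.0236 to 0.0378 by the permutation test. The calls depended on the setting: 0 genes passed with Spearman's rho (2009 unadjusted) or without tumors 17 and 18 (2056). In Lo alone (1081) and in Hi alone (1558) 0 passed too, but so few tumors leave an adjusted call hard to reach. With total counts in place of TMM, 95 genes passed with a positive and 4 with a negative r, and the median r of all genes moved to 0.127. Of the T cell receptor and signalling list 0 of 11 genes tested passed, yet all 11 had a positive r, with a median of 0.349 and the highest in Trbc2 (0.618). Other immune lists had positive medians too: the 7 leukocyte genes had a median r of 0.438 and the 8 macrophage genes 0.326, with 0 passing in both lists. The summed leukocyte genes ranged from 74.0 to 154 CPM in Lo and from 89.2 to 137 CPM in Hi tumors, the macrophage genes from 347 to 632 and from 383 to 754 CPM, and the part of these cells in the members' r was not tested.

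With Ptprc, the gene of the leukocyte phosphatase CD45, all 8 members tested had a positive r, with a median of 0.526, where 50% of all genes had a positive r. None passed at an adjusted p of 0.05, where 2.57% of 18882 genes did, and 5 passed unadjusted with a positive r, where 9.02% did. The r was 0.616 for Cd3e (adjusted p = 0.0893), 0.580 for Gzmb (0.118), 0.563 for Cd3g (0.131), 0.532 for Cd8a (0.158) and 0.520 for Pdcd1 (0.186), all by the permutation test. Cd4 (0.357) and Cd274 (0.299) were lowest. With total counts in place of TMM, Cd3e, Cd3g and Pdcd1 passed, at adjusted p-values of 0.0377, 0.0363 and 0.0358, but the median r of all genes then moved to 0.267 and the genes called went from 274 positive and 211 negative to 1690 and 67. Gzmb had an r with Ptprc of 0.801 in Hi and 0.313 in Lo tumors, a difference that was not tested. Ptprc was not a reading of all leukocytes: of the 6 other leukocyte genes 0 passed with it, with r from 0.184 for Laptm5 to 0.630 for Itgb2 and a median of 0.357, the median of the macrophage genes was 0.215 and that of the neutrophil genes −0.166.

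The genes most like Ptprc were Fyb, an adaptor of T cells and myeloid cells (r = 0.891), and then Rnf20 (0.876), Srrm1 (0.867), Haus6 (0.843) and Tgs1 (0.841), which are expressed by most cells and lie on chromosome 4. Chromosome 4 held 6.17% of the genes tested but 126 of the 274 called positive with Ptprc, or 46.0%. The median r of chromosome 4 genes was 0.391 with Ptprc, 0.332 with Cd3e and 0.0788 with Cd274, against −0.02, −0.02 and −0.01 for genes elsewhere. The paper reports that alleles expressed from this whole chromosome were skewed toward FVB, and that karyotyped tumors had lost a copy. No member lies on chromosome 4, but several listed genes do, among them Lck, Laptm5, Cd52, C1qa, C1qb, Jak1, Csf3r, Tnfrsf4, Tnfrsf14 and Tnfrsf18. What this chromosome contributes to the members' r, or to the median r of the lists that hold those genes, was not tested.

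**Figure D4:**
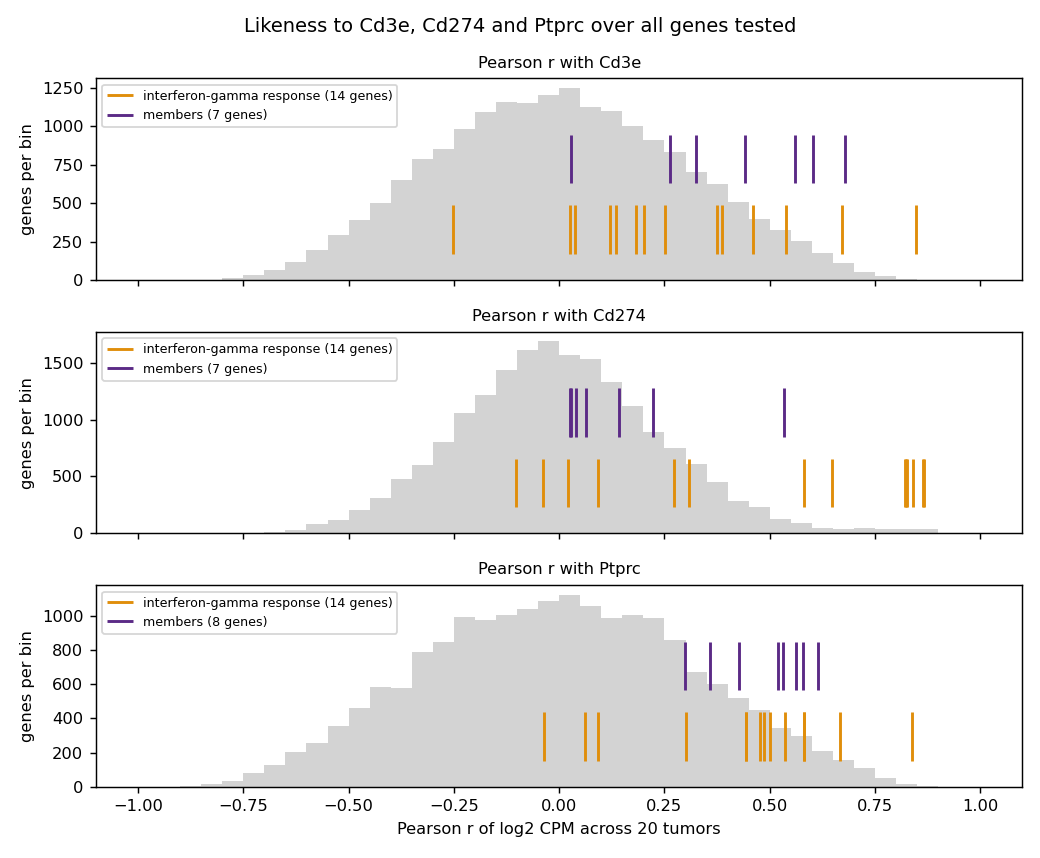
Distribution over all genes tested (grey; genes per bin of 0.05) of Pearson's r with Cd3e, Cd274 and Ptprc across 20 tumors, with the members (purple) and the interferon-gamma response genes (orange) as vertical ticks. Members lie to the right of 0 in all panels (for Cd274, 5 of 7 fall below 0 without tumors 13 and 18) and highest for Ptprc (median r 0.526), while interferon-gamma genes reach furthest right for Cd274 (median r 0.614).

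The genes nearest to Cd274 in pattern were interferon-induced. Of 18882 genes tested 140 passed with Cd274, 136 of them positive, which is 0.741%, and 0 of the 7 other members were among them. All 7 had a positive r, against 48.9% of all genes, but without tumors 13 and 18, the farthest for Cd274, r was negative for 5 of them, from −0.0151 for Cd3g to −0.294 for Pdcd1. Gzmb was the nearest member (r = 0.533, adjusted p = 0.536, permutation test) and the only one with an unadjusted p under 0.05, which 3.82% of all genes reached with a positive r, and the r of the remaining 6 ran from 0.0267 for Pdcd1 to 0.223 for Cd4. The most similar were Ifi44l (r = 0.916), Parp12 (0.910), the antiviral oligoadenylate synthetase Oas3 (0.899), the interferon signal transducer Stat2 (0.898) and Znfx1 (0.892), a sensor of viral RNA, each with p = 1e-05, the smallest 100000 permutations can give, and an adjusted p of 0.00363. Each of the 5 had an r of at least 0.673 within Lo and within Hi tumors.

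Of 14 interferon-gamma response genes 6 passed with Cd274, all positive, and the list's median r was 0.614. They included the peptide transporter Tap1 (0.863), the immunoproteasome genes Psmb9 (0.841) and Psmb8 (0.822), the GTPase gene Gbp2 (0.826) and Nlrc5 (0.823), the activator of MHC class I genes. Irf1, a direct activator of Cd274, had an r of 0.647 that did not pass (adjusted p = 0.199, permutation test). The receptor chains Ifngr1 (0.0923) and Ifngr2 (−0.0390) and the kinase genes Jak1 (0.0220) and Jak2 (−0.102) lay near 0. Among the other checkpoint genes Lgals9 passed (r = 0.843), and among the T cell chemokines Cxcl10, the interferon-induced ligand of CXCR3 (r = 0.769, adjusted p = 0.0142, permutation test). Genes near Cd274 on chromosome 19 did not follow it, with a median r of −0.23 and 0 of 5 past the threshold.

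**Figure D5:**
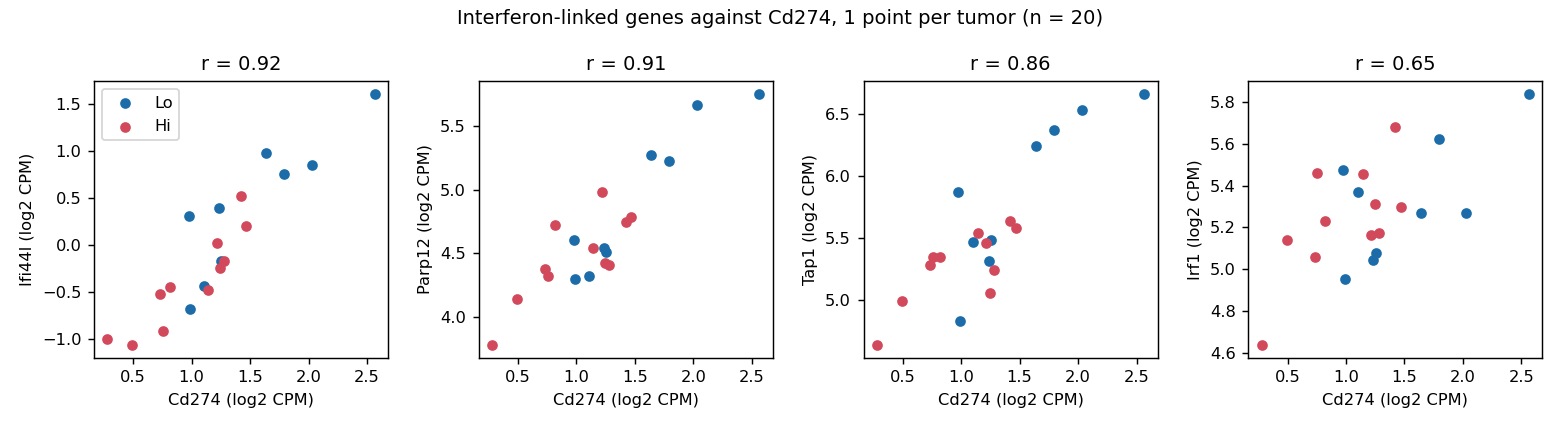
Log2 CPM of Ifi44l, Parp12, Tap1 and Irf1 (vertical axes) against log2 CPM of Cd274 (horizontal axes), 1 point per tumor, blue for Lo and red for Hi. The r is 0.916, 0.910, 0.863 and 0.647, and Lo tumor 13 holds the highest value of Cd274 and of all 4 other genes.

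These relations leaned on the extremes of Cd274. Without tumors 13 and 18, the highest and the lowest, 27 genes passed, and the r of Tap1 was 0.776, while that of Irf1 was 0.304. With Spearman's rho 0 genes passed (1106 unadjusted), although rho was 0.883 for Ifi44l, 0.731 for Tap1 and 0.460 for Irf1. Lo tumors alone gave 0 genes (1399 unadjusted) and Hi tumors alone 0 (781 unadjusted), with 9 and 11 tumors, which leave an adjusted call hard to reach. Cd8a had an r with Cd274 of 0.834 in Hi and −0.281 in Lo tumors, neither past an adjusted threshold, and this difference was not tested.

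Between Lo and Hi tumors no gene passed. Of 18883 genes tested with edgeR's quasi-likelihood test 0 (0%) had an adjusted p under 0.05, and 1045 (5.53%) had an unadjusted p under 0.05. DESeq2 called 1 gene, Serpina3g, lower in Hi. Of the 8 members tested 6 had a higher fitted level in Hi, where 49.7% of all genes did, and their median log2 difference was 0.54, against −0.0011 over all genes. Since 1 tumor came from each mouse, these p-values measure the spread between mice.

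Cd3e had the greatest difference among the T cell genes. Its median was 19 counts in Hi (range 4 to 38) and 10 in Lo (range 3 to 17), and its log2 fold difference, Hi minus Lo, was 0.84 (SE 0.36, p = 0.0302, adjusted p = 0.851, edgeR). On the CPM scale 7 of 11 Hi tumors lay above every Lo tumor, and the other 4 lay within the Lo range. The log2 difference was 0.70 (SE 0.39) for Cd3g, 0.58 (SE 0.56) for Cd3d, 0.73 (SE 0.38) for Cd8a, 0.50 (SE 0.26) for Pdcd1 and 0.19 (SE 0.20) for Cd4, none past the unadjusted threshold. Cd3e was thus the only one of the 8 members higher in Hi at an unadjusted p under 0.05, where 2.04% of all genes were. That threshold was missed with the replicate number as a block (p = 0.0648, edgeR) and on leaving out any 1 of tumors 1, 2, 4, 6, 11, 17 and 19 (p = 0.0509 to 0.0589, edgeR). For the members too low to pass the filter, a fit without it gave 0.41 for Cd2 (p = 0.477, adjusted p = 0.926, edgeR) and 0.54 for Prf1.

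Cd274 and Gzmb had the opposite sign. Cd274 averaged 2.98 ± 1.58 CPM in Lo (n = 9) and 2.07 ± 0.538 CPM in Hi (n = 11). Its log2 difference was −0.58 (SE 0.20, p = 0.00915, adjusted p = 0.704, edgeR). Without Lo tumor 13 the log2 difference was −0.40 (p = 0.0376, edgeR), and with the replicate number as a block −0.51 (p = 0.0425, edgeR). The medians were 2.17 CPM in Lo and 2.29 CPM in Hi, taken over total counts and so without the TMM scaling of that difference. On the CPM scale 4 Lo tumors (1, 4, 13 and 14) lay above every Hi tumor. Gzmb had a log2 difference of −0.24 (SE 0.44, adjusted p = 0.9996, edgeR), and without Lo tumor 1 it was 0.14, so the sign of the fitted difference rests on that tumor. Its medians with all tumors were 0.598 CPM in Lo and 0.437 CPM in Hi. Of the 14 interferon-gamma genes 6 had an unadjusted p under 0.05 with a higher level in Lo, where 3.5% of all genes did, 0 passed after adjustment by edgeR, and the list's median difference was −0.21. The T cell receptor and signalling list had a median log2 difference of 0.0043 with 0 of 11 genes past either threshold.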

How the data were processed

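RNA of 20 breast tumors, processed and sequenced together, was made into TruSeq mRNA libraries whose paired reads the authors trimmed to 100 bases. The table the authors deposited holds unnormalized read counts for each gene in each tumor. The paper names MapRseq with TopHat and mm10. The submitters' processing notes also list TopHat2 2.0.12, featureCounts 1.4.4 and a human build, without their roles. The strand setting and annotation release are not given in the sources used here. The reference strain, C57BL/6, differs from both parents.

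Members and lists were chosen with earlier results of these data known. The genes named are the 10 members, listed genes with a mean of at least 10 counts, and per gene followed the 5 most similar with a mean of at least 1 CPM. Ctla4, Ifng, Gzmk, Tigit, Pdcd1lg2 and Serpina3g were named after their values were seen, as was the share of chromosome 4. CPM and RPKM were computed from the counts as deposited, over the total count and the listed coding length. Lo and Hi were compared with edgeR 4.0.16 (filterByExpr at 10 counts, TMM, quasi-likelihood test, Benjamini-Hochberg at 0.05) in R 4.3.3, with DESeq2 1.42.0 as an alternative. Correlations used log2 CPM with a prior count of 2 and two-sided permutation tests in Python 3.11.15 (numpy 2.4.6), exact for the 9 Lo tumors. Both were tested on simulated data. Alternatives were other scalings, no filter, prior count 0.5, a mean of at least 50 counts, Spearman's rho, each group alone, group means removed, the replicate number as a block and each tumor left out. Intervals and floors cover counting error only. Of 132 listed genes 131 were found, Adgre1 and Jchain by identifier under older symbols. Some genes are not reported here.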

Additional observations from a re-analysis of the deposited data

Results flagged for a closer look

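Each of the 10 members was examined among the 9 Lo tumors for a tumor set apart from the rest by a gap above Dixon's critical value at 95%. If the values were normally distributed, chance would flag about 1 in 20 such groups. The CPM were used without a log scale and their distribution was not tested, so the rate here may differ. The 11 Hi tumors were too many for this rule. Gaps of this size were found for 3 members, in 3 different tumors, all at the high end. Cd8a stood at 0.476 CPM in tumor 3, from 23 counts, where the next Lo tumor had 0.252 CPM. Gzmb stood at 2.12 CPM in tumor 1, from 82 counts, against 1.18 CPM in the next. Cd274 stood at 6.72 CPM in tumor 13, from 319 counts, against 3.69 CPM in the next. On the CPM scale the same tumor had the highest Cd3e, Cd4, Prf1 and Pdcd1 of the Lo group, from 17, 114, 6 and 15 counts, none of which was set apart in this way. Its share of counts on the ribosomal genes, which are part of the total under CPM, was the lowest of all at 6.29%. For Prf1 it led Lo tumor 9, which had 7 counts, by only 0.1264 to 0.1257 CPM.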

How the results depend on the processing

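The count of genes that differ between Lo and Hi was 1 with DESeq2 (Serpina3g) and 1 with no filter on low counts, 0 without the ribosomal genes, and 0 to 0 with each tumor left out in turn. With the replicate number as a block it was also 0, with 871 genes at an unadjusted p under 0.05, and no member passed in either fit after adjustment, while Cd3e lost its unadjusted threshold (p = 0.0648, edgeR). Over 9 same-numbered pairs the correlation of deviations ran from −0.418 to 0.208, with 3 over 0.1 and 1 tumor closest to its own number. Whether same-numbered tumors share more than the number was not tested, and the labels do not say. Genes following Cd3e numbered 99 with total counts, 81 with group means removed, 13 with no filter, and 0 with Spearman's rho, without the 2 farthest tumors, in Lo alone and in Hi alone. Those following Cd274 numbered 27 without the 2 farthest tumors and 0 with Spearman's rho, in Lo alone and in Hi alone. Those following Ptprc numbered 1757 with total counts, 294 with no filter, 247 without tumors 13 and 20, the farthest for Ptprc, 0 in Lo alone and 12 in Hi alone. Each group alone holds fewer tumors, so its counts cannot be set directly against those of all tumors. With each tumor left out in turn the log2 difference of Gzmb ran from −0.55 to 0.14, the last without Lo replicate 2, which is tumor 1, being the only change of sign. The r of Cd3e with Cd274 turned to −0.0647 with Spearman's rho. Without the 2 tumors farthest for Cd3e it was −0.156, and without the 2 farthest for Cd274 −0.258. Without the latter, r with Cd274 also turned negative for Cd3g (−0.0151), Cd4 (−0.0466), Cd8a (−0.0187) and Pdcd1 (−0.294). In Lo alone it did so for Cd3g (−0.0698) and Cd8a (−0.281). Other settings moved r with Cd274 the other way. With group means removed it was 0.308 for Cd3e, 0.302 for Cd3g, 0.422 for Cd4, 0.367 for Cd8a and 0.305 for Pdcd1. In Hi alone the r of these genes ran from 0.188 for Pdcd1 to 0.834 for Cd8a, with 0.572 for Cd3e. None of them passed at an adjusted p of 0.05 by the permutation test. The cause was not tested. Of 225 values of members' r under alternatives 212 kept their sign and their side of the threshold, as did 186 of 187 log2 differences. No member passed in the main settings, so keeping that side meant only remaining uncalled. These counts do not show that the values were stable in size. The r of Cd8a with Cd274, for instance, ran from −0.281 to 0.834 over the settings. At these depths members at under 10 counts, above all Prf1, Cd2 and Cd3d, have wide counting intervals.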

Other observations

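The lists not described above gave few calls with the members. With Cd274, 1 of 7 genes of natural killer cells and cytotoxic effectors passed. With Cd3e, 0 passed among the 7 tested genes of natural killer cells and cytotoxic effectors (median r 0.342), the 5 of regulatory T cells (0.214), the 11 other checkpoint genes (0.0470), the 7 T cell chemokine and receptor genes (0.223), the 7 of dendritic cells (0.302), the 4 of B cells (0.0676), the 4 of neutrophils (0.0560) and the 7 of mammary epithelium (−0.0560). With Ptprc, 2 of the 7 T cell chemokine and receptor genes passed, as did 1 of the 7 dendritic cell genes, Itgax (r = 0.705, adjusted p = 0.0299, permutation test), and 1 of the 14 interferon-gamma genes, Ciita (r = 0.837, adjusted p = 0.0114, permutation test). Between Lo and Hi no gene of any list passed with edgeR's quasi-likelihood test, the lowest adjusted p being 0.637, in the interferon-gamma list. Of the mammary epithelium list 1 of 7 genes was higher in Hi at an unadjusted p under 0.05. Of the 7 T cell chemokine and receptor genes tested 2 were higher in Hi and 1 in Lo. At that threshold 2.04% of all genes were higher in Hi and 3.5% in Lo.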
